A study of Mus musculus with 4 samples.

Results

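The cytoplasmic ribosomal protein genes code for the proteins of the cytosolic ribosome, which joins a small subunit that reads the mRNA to a large subunit that forms the peptide bond. Members were taken by symbol from the deposited expression table: Rpl or Rps with a number and at most 1 of the letters a, l or x, together with the stalk genes Rplp0, Rplp1 and Rplp2 and the laminin receptor gene Rpsa. This gave 81 genes of 24487 rows, 49 of the large and 32 of the small subunit, each with a single row. The fusion gene Fau and Rps3a1 carry other kinds of symbol and are described apart. The cells were cultured mesenchymal stem/progenitor cells (MSPCs) grown out of mouse bone marrow, 2 wild-type (WT) and 2 Asxl1-/- libraries, all on the C57BL/6 strain background, at passages 5 to 10. Every culture was kept in MesenCult with 20% of its supplement and passaged once it was 80 to 90% confluent. The age of the animals and the way the Asxl1-/- allele was made were not given in the labels. Nothing there says that the libraries of a genotype came from separate animals. Each p-value thus sets a difference between groups against the spread between libraries, which may be technical. In the tests of single genes that spread is partly borrowed from other genes. Libraries are called WT replicate 1 and 2 and Asxl1-/- replicate 1 and 2, the numbers being names that pair nothing.

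Every ribosome carries 1 copy of most of these proteins, so cells make them in near-equal amounts, and their mRNAs are among the most abundant of growing cells. Many of the mRNAs start with a C followed by a run of pyrimidines, the 5′ terminal oligopyrimidine (TOP) tract, through which the kinase complex mTORC1 and the RNA-binding protein Larp1 set their translation and stability. RNA polymerases I and III make the ribosomal RNAs, and Myc drives the making of these RNAs and of the assembly factors. Asxl1 codes for a chromatin regulator that is often mutated in myeloid disease.

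Expression was given as FPKM, fragments scaled by transcript length and by the mapped fragments of the library, which allows levels to be compared between genes. The deposited files used here hold no read counts, so the depth of each library is unknown and no counting error can be given. Asxl1 was at 14.6 and 11.2 FPKM in WT against 0.273 and 0.312 FPKM in the Asxl1-/- libraries (log2 fold change -3.41, SE 0.29, limma adjusted p = 0.215). Of 10 stromal marker genes 9 had a mean of at least 1 FPKM, and their summed level lay between 4412 and 5628 FPKM in the 4 libraries. Most of that sum came from Col1a1, Col1a2, Col3a1 and Cxcl12, and some lower markers were less even. Pdgfra was at 80.9 and 4.78 FPKM in WT and at 58.78 FPKM or more in both Asxl1-/- libraries. Eng was at 10.7 FPKM in WT replicate 1 and below 1 FPKM in the other libraries. Marker sums of B cells, T cells, neutrophils, erythroid cells and adipocytes were all below 1 FPKM. The sum of endothelial markers reached 7.16 FPKM in Asxl1-/- replicate 2, where Cdh5 alone gave 7.11 FPKM. Macrophage markers, 11 of them with a mean of at least 1 FPKM, summed to 7.48 and 543 FPKM in WT and to 80.7 and 368 FPKM in the Asxl1-/- libraries, where Fcer1g alone gave 72.2 FPKM of the 80.7. Similarly, 6 proliferation markers summed to 228 and 158 FPKM in WT and to 77.2 and 93.1 FPKM in the Asxl1-/- libraries.

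The TOP tract is the sequence feature that ties these mRNAs to growth control, so it was read at the annotated RNA start of each member. RefSeq promoters (GRCm38.p6) matched 60 of the 81 members. A C at the first transcribed base followed by at least 4 pyrimidines stood at the start of 13 of these 60 (21.7%), against 3.01% of all 27025 promoters and 2.67% of the 17492 of coding genes. With at least 6 pyrimidines the shares were 16.7% of members and 1.29% of all promoters. When the tract could begin within 5 bases of the annotated start, the shares were 46.7% and 21.2%, so the share of members depends on how exactly the start is placed. The windows below run from 10 bases before the annotated start to 20 bases from it, 5′ to 3′ on the gene's strand, with the tract in capitals. The first 7 are members with a tract at the start, chosen because the results below turn on them. The last 3 are a p53-responsive paralog and a pair of paralogs that have none at the annotated start itself. In Rps27l and Rpl39 the letters CCTCT begin within 5 bases of that start.
Rps6: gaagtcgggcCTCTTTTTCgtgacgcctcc
Rps18: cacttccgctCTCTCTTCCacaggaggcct
Rpl35: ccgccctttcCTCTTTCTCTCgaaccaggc
Rpl28: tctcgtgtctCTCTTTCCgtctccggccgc
Rpl38: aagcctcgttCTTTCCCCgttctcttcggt
Rplp2: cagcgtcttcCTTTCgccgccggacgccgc
Rps27: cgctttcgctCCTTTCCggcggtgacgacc
Rps27l: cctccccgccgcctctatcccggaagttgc
Rpl39: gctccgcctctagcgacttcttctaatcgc
Rpl39l: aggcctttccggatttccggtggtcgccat
The windows lie at chr4:86857348-86857377 on the minus strand for Rps6, chr17:33955646-33955675 minus for Rps18, chr2:39005112-39005141 minus for Rpl35 and chr7:4792955-4792984 plus for Rpl28. Those of Rpl38, Rplp2 and Rps27 lie at chr11:114668570-114668599 plus, chr7:141447641-141447670 plus and chr3:90213629-90213658 minus. Those of Rps27l, Rpl39 and Rpl39l lie at chr9:66946076-66946105 plus, chrX:37085203-37085232 minus and chr16:10170218-10170247 plus. The tract spans 11 bases in Rpl35, 9 in Rps6 and Rps18, and 5 in Rplp2. It was also found at the start of Rps21, Rps15a, Rpl14, Rpl15, Rpl35a and Rps10.

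Other promoter motifs were searched on both strands in the 300 bases from 250 before to 50 after the start. The letters CCGGAAGT, which ETS-family factors such as GABP bind, were in 20.0% of members and 4.31% of all promoters. The CGCG element, a palindrome of housekeeping promoters that Banp binds, was in 10.0% and 0.525%. AAGATGGC, the core bound by YY1, was in 8.33% and 3.19%, while TATAAA, the core promoter box that Tbp binds, was in 10.0% and 15.7%. The 4 motifs do not contain one another. These matches describe letters in a window and not sites in use.

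Ribosomal protein genes were among the most abundant mRNAs of these cells. The median member had a mean of 730 FPKM, against 10.7 FPKM over the 11485 genes that averaged 1 FPKM or more and were tested. Of the members 79 were above that minimum, 70 had a mean of at least 100 FPKM, a level that 5.83% of all genes tested reached, and 24 had a mean of at least 1000 FPKM. Among the 100 highest rows of at least 300 bp, 48 were members. Together the members took 16.7, 16.2, 16.4 and 13.2% of the FPKM in rows of that length in WT replicates 1 and 2 and Asxl1-/- replicates 1 and 2.

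Rpl41, whose product is the shortest protein of the ribosome, had the highest level, at 3531 and 4293 FPKM in WT and 3632 and 3705 FPKM in the Asxl1-/- libraries. Rpl35, a large-subunit protein near the exit of the peptide tunnel, was at 3179 and 2494 FPKM in WT and 2544 and 1660 FPKM in the Asxl1-/- libraries. The next were Rps15 with a mean of 2153 FPKM, Rpl23a with 2084 FPKM and Rps23, a protein of the decoding centre, with 1983 FPKM. The low end of the range, 11 members with a mean under 100 FPKM, was examined for its gene models.

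Several of the lowest members shared their locus with another row of the table. Rps27, a small-subunit zinc finger protein, was listed at 9.10 and 5.44 FPKM in WT and 5.51 and 8.0 FPKM in the Asxl1-/- libraries, at chr3:90212667-90213648 (mm10). A row named Rps27rt covered 99.9% of that span and was at 1536 and 1348 FPKM in WT and 1308 and 1283 FPKM in the Asxl1-/- libraries. The coding sequences of both genes are 100% identical, and GENCODE M21 places Rps27rt on chromosome 9, not on chromosome 3. The row named Rps27 thus held 0.510% of the signal listed at its own locus.

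The same arrangement was found for 3 large-subunit genes. Rpl30 (chr15:34440508-34443276), with a mean of 98.7 FPKM, shared its locus with a row named Gm12191 at a mean of 1353 FPKM. Rpl26 (chr11:68901566-68904534), which binds p53 mRNA besides its place in the ribosome, had a mean of 165 FPKM beside 1254 FPKM for Gm15772. Rpl34 (chr3:130726827-130730398) had a mean of 192.5 FPKM beside 686 FPKM for Rpl34-ps1. GENCODE M21 holds these 3 names as processed pseudogenes on chromosomes 11, 5 and 6, with 99.43 to 99.71% identity to the member's coding sequence. Summed with the second row, Rpl30 came to 1452 FPKM (rank 11 of the members by mean level), Rpl26 to 1419 FPKM (rank 12), Rps27 to 1376 FPKM (rank 14) and Rpl34 to 879 FPKM (rank 33). All 4 sums were above the members' median level of 730 FPKM, and the 4 single rows were below it.

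**Figure D1:**
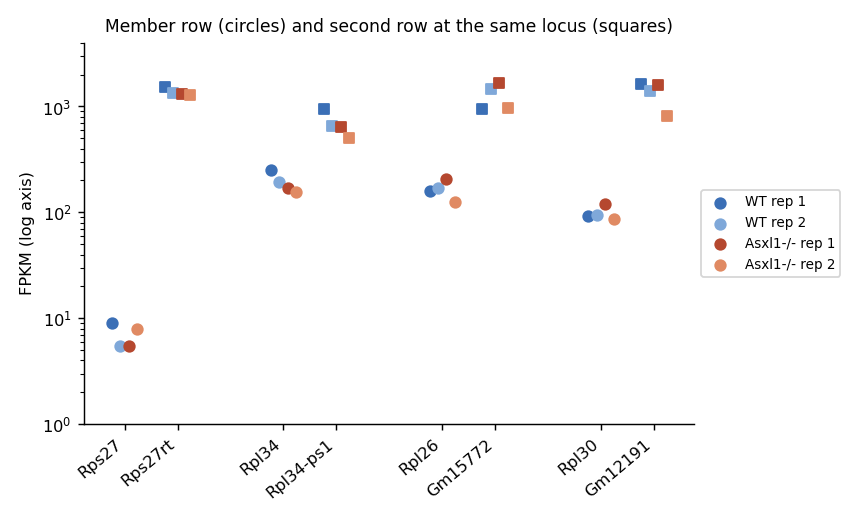
FPKM (log axis) in the 4 libraries of the rows of Rps27, Rpl34, Rpl26 and Rpl30 (circles) and of the second row at the same locus (squares); each point is 1 library, coloured by library. In all 4 genes the second row lay above the member's own row in every library.

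Copies elsewhere in the genome stood beside the low rows of 2 further members. Rps15a was at 4.64 and 3.05 FPKM in WT and 3.28 and 3.43 FPKM in the Asxl1-/- libraries, while Rps15a-ps6, a pseudogene on chromosome 11 with 98.7% identity, was listed at 232, 226, 220 and 196 FPKM. Rpl14 was at 18.7 and 33.3 FPKM in WT and 29.3 and 21.8 FPKM in the Asxl1-/- libraries, while Rpl14-ps1 on chromosome 7, with 98.9% identity, was at 465, 742, 592 and 365 FPKM. Rplp2, a stalk protein, had a mean of 30.5 FPKM with no such abundant copy among the rows. Over the 80 members with a coding transcript, 74 had at least 1 other annotated gene whose transcript matched at least 90% of the coding sequence with at least 95% identity, and 23 had a copy that was 100% identical. The median member had 5 copies and Rpl21 had the most, 56. How reads were shared out between such copies is not stated in the sources used, so single member levels, above all low ones, are uncertain. Across 78 members the mean level showed little relation to the number of copies (Spearman rho 0.14) or to transcript length (rho 0.05), a description over genes that share the same 4 libraries. In 29 members the introns or exons also hold snoRNA genes, 56 in all, which guide the modification of ribosomal RNA.

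No ribosomal protein gene passed limma's test for a difference between Asxl1-/- and WT MSPCs. At an adjusted p under 0.05, 0 of 79 members were called (0.0261% of all genes tested were), and 0 members had an unadjusted p under 0.05 (7.91% of all genes tested did, 2.51% higher and 5.41% lower). The adjusted p of members lay between 0.686 and 0.998. Most point estimates were slightly below 0: the median log2 fold change was -0.15 against -0.07 over all genes tested, and 60 of 79 members were negative (75.9%, against 56.8% of all genes). Without Asxl1-/- replicate 2 the median was 0.04, with 31 of 79 negative, and without Asxl1-/- replicate 1 it was -0.41, with 71 of 79 negative, so the direction rests on 1 library. Rescaled to a common total over all rows (TPM), the medians were 0.09 for members, with 29 negative, and 0.16 for all genes; rows under 300 bp, which weigh on that total, held 24.9 and 40.9% of FPKM in WT and 22.6 and 21.4% in the Asxl1-/- libraries. Fewer cells with high ribosomal protein mRNA and less of it per cell cannot be told apart in such bulk samples. Log2 fold changes are differences of log2(FPKM + 1), which lessens the change of low genes. With SEs of 0.25 to 0.55 for all tested members but Rpl39l, Rps4l and Rps27l, differences of the size seen here were not detectable with 2 libraries a group.

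**Figure D2:**
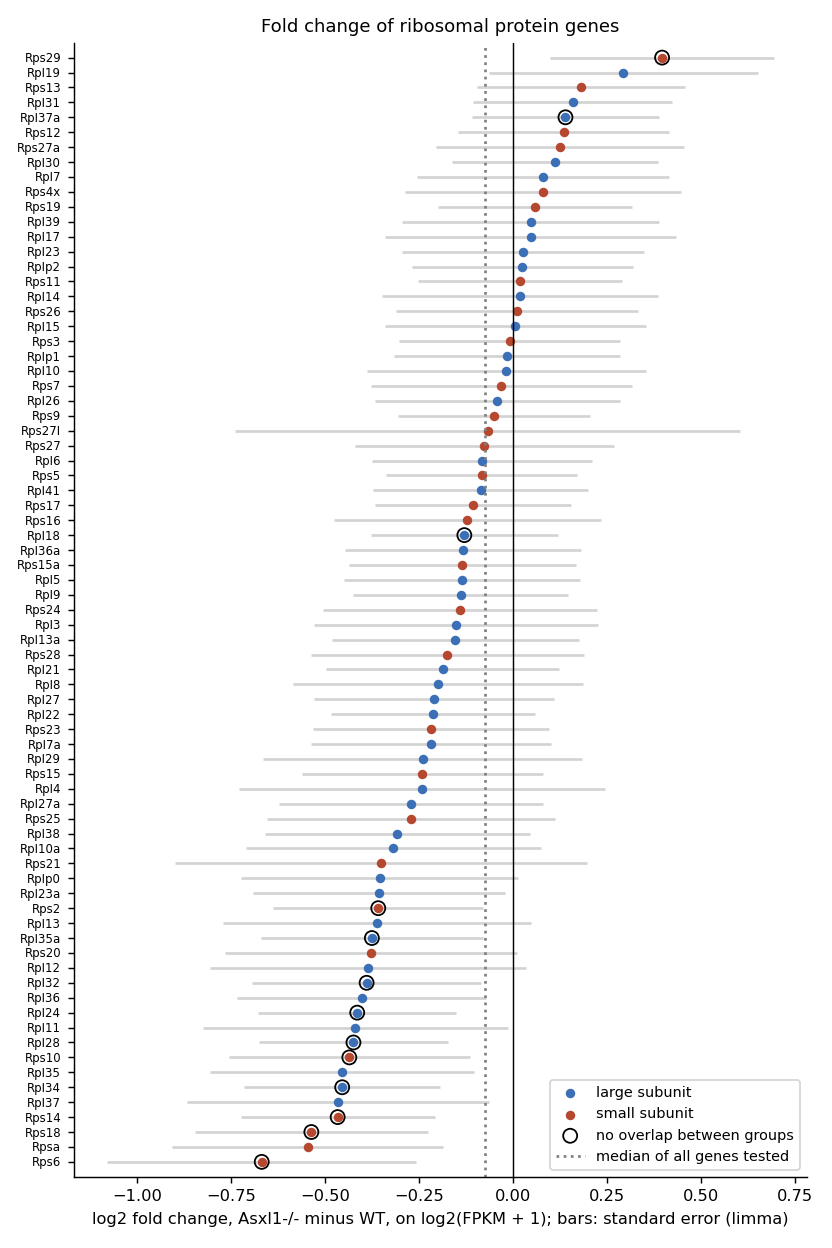
Log2 fold change (Asxl1-/- minus WT, log2(FPKM + 1) scale) of tested members, ordered by value and coloured by subunit; bars are standard errors from limma, open circles mark members whose groups do not overlap, and the dotted line is the median of all genes tested. Of the 79 members 4 are not drawn, among them Rpl39l and Rps4l, whose SEs are far larger; point estimates run from -0.67 (Rps6) to 0.40 (Rps29), and no member passed the test.

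Medians were below 0 in both subunits, and the difference between them was not tested. The 47 tested large-subunit genes had a median log2 fold change of -0.19 with 36 negative, and the 32 small-subunit genes had -0.13 with 24 negative. Large-subunit genes took 59.6 and 59.6% of the members' summed FPKM in WT and 60.3 and 58.6% in the Asxl1-/- libraries. The balance between subunits thus moved by under 2 percentage points over the 4 libraries. Non-overlapping groups, in which both libraries of a genotype lay beyond both of the other, were found for 12 members on the lower side (15.2%, against 25.2% of all genes tested) and 2 on the higher side (2.53%, against 15.6%). Both shares were below those of all genes. The lean to the lower side depended on the scaling: with TPM over all rows 1 member was lower and 14 were higher, and with quantile normalization 10 were lower and 7 higher. All genes moved with the scaling too. Of them 56.8% were negative in FPKM, 35.9% with TPM over all rows and 48.5% with quantile normalization. The share of all genes whose groups do not overlap is not given for these scalings, so whether the change in these counts is particular to members cannot be told.

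Among small-subunit genes, Rps6, the protein that S6 kinase phosphorylates downstream of mTORC1, was at 595 and 479 FPKM in WT against 469 and 240 FPKM in the Asxl1-/- libraries. The groups did not overlap, but Asxl1-/- replicate 1 lay next to WT replicate 2 (log2 fold change -0.67, SE 0.41, limma adjusted p = 0.712). Rps18, a protein of the subunit's head, was at 1682 and 1671 FPKM in WT against 1393 and 959 FPKM (log2 fold change -0.54, SE 0.31). Rps14, whose loss of 1 copy marks a form of human myelodysplastic syndrome, was at 1184 and 1344 FPKM in WT and 935 and 893 FPKM in the Asxl1-/- libraries. It had the smallest unadjusted p of all members, 0.137 by limma, with a log2 fold change of -0.47 (SE 0.26). Rps10 was at 1384 and 1275 FPKM in WT and 1206 and 801 FPKM in the Asxl1-/- libraries, of which replicate 1 lay close to WT.

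Rps29 was the member with the highest log2 fold change, 0.40 (SE 0.30, limma adjusted p = 0.756), at 933 and 877 FPKM in WT and 1406 and 1011 FPKM in the Asxl1-/- libraries. Here Asxl1-/- replicate 1 was far above the other libraries and replicate 2 was close to WT. Rps19, the gene most often mutated in Diamond-Blackfan anaemia, was at 205 and 208 FPKM in WT and 244 and 190 FPKM in the Asxl1-/- libraries, so the WT values lay between the others. Rps3, which lines the mRNA entry channel, was at 250 and 197 FPKM in WT and 257 and 190 FPKM, again on either side of WT. Rpsa was at 862 and 1236 FPKM in WT and 870 and 574 FPKM in the Asxl1-/- libraries (log2 fold change -0.55, SE 0.36), and the groups overlapped through WT replicate 1. Rps27a, made as a fusion with ubiquitin, was at 575 and 654 FPKM in WT and 839 and 533 FPKM in the Asxl1-/- libraries, which lay on either side of WT.

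Among large-subunit genes, Rpl28 was at 1068 and 1106 FPKM in WT and 835 and 785 FPKM in the Asxl1-/- libraries (log2 fold change -0.42, SE 0.25, limma adjusted p = 0.701). Its replicates lay close together in both groups. Rpl24, which bridges to the small subunit, was at 1078 and 933 FPKM in WT and 801 and 706 FPKM in the Asxl1-/- libraries. Rpl34 was at 251 and 196 FPKM against 169 and 155 FPKM, with a log2 fold change of -0.45 that was 0.04 after each library's chromosome medians were removed. Other non-overlapping members were Rpl32, Rpl35a, Rps2 and Rpl18 on the lower side and Rpl37a on the higher, at 577 and 630 FPKM in WT and 690 and 639 FPKM in the Asxl1-/- libraries.

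The stalk, to which elongation factors bind, is built by Rplp0, Rplp1 and Rplp2. Rplp0 was at 2183 and 1318 FPKM in WT and 1490 and 1181 FPKM in the Asxl1-/- libraries, and Rplp1 was at 703 and 806 FPKM in WT and 881 and 630 FPKM. Both had overlapping groups. Rplp2 was at 36.9 and 24.1 FPKM in WT and 29.2 and 31.7 FPKM, with WT replicate 2 lowest. Rpl5 and Rpl11 carry the 5S ribosomal RNA and can bind Mdm2 when assembly fails. Rpl5 was at 454 and 415 FPKM in WT and 488 and 321 FPKM in the Asxl1-/- libraries, and Rpl11 was at 678 and 514 FPKM in WT and 604 and 322 FPKM. In both genes Asxl1-/- replicate 2 was the lowest library and replicate 1 was within or above WT. Rpl10, which completes the large subunit, was at 1319 and 1295 FPKM in WT and 1720 and 970 FPKM, and Rpl38, needed in the mouse for patterning of the skeleton, was at 1457 and 1925 FPKM in WT and 1673 and 1094 FPKM. Rpl22, a subunit protein that is lost in some leukaemias, was at 60.75 and 59.96 FPKM in WT and 61.7 and 43.7 FPKM in the Asxl1-/- libraries. Asxl1-/- replicate 2 was the lowest library for each of these genes except Rplp2.

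In FPKM, Asxl1-/- replicate 2 stood apart for most members. It was the lowest of the 4 libraries for 57 of 79 members (27.1% of all genes tested had it lowest) and the highest for 0 (20.6% of all genes). Asxl1-/- replicate 1 was the lowest for 2 members (27.3% of all genes). The median member lay -0.31 log2 units from its 4-library mean in that library, and 0.12, 0.03 and 0.15 log2 units from it in WT replicates 1 and 2 and Asxl1-/- replicate 1. Over all genes tested these medians were -0.05, 0.08, 0.00 and -0.04. The summed FPKM of members was 70939 and 67562 in WT and 70239 and 51630 in the Asxl1-/- libraries, or 69251 ± 2388 against 60935 ± 13158 FPKM (SD, n = 2 each, exact permutation p = 0.667, two-sided; 2 against 2 cannot go below 0.333). Asxl1-/- replicate 1 was thus level with WT, and the spread within the Asxl1-/- group exceeded the difference between the groups. As a share of the FPKM of all rows, short ones included, the members took 12.6 and 9.601% in WT and 12.7 and 10.4% in the Asxl1-/- libraries, so on that scale WT replicate 2 was the lowest. The difference between the Asxl1-/- libraries had a median of -0.48 over members and 0.00 over all genes, while that between the WT libraries had -0.09 and -0.08. Macrophage markers were at 368 FPKM in Asxl1-/- replicate 2 but at 543 FPKM in WT replicate 2, and proliferation markers were at 93.1 FPKM in it and at 77.2 FPKM in Asxl1-/- replicate 1. The part of either in the low member levels was not tested.

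**Figure D3:**
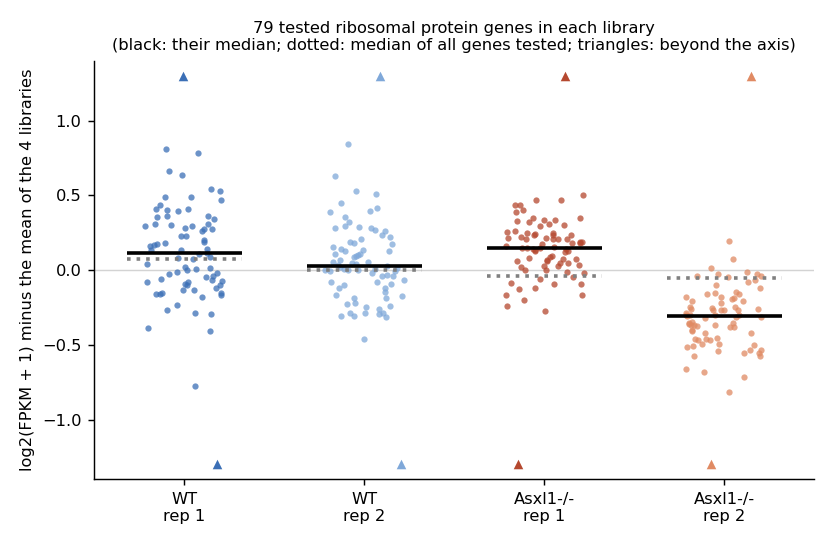
Deviation of each tested member from its 4-library mean on the log2(FPKM + 1) scale, in each library; each point is 1 gene, triangles mark genes beyond the axis, black bars mark the medians of members and dotted bars those of all genes tested. The medians are 0.12, 0.03 and 0.15 in WT replicates 1 and 2 and Asxl1-/- replicate 1, and -0.31 in Asxl1-/- replicate 2.

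Apart from this shift the members were steady. The highest library was less than 2-fold above the lowest for 67 of 79 members (84.8%), against 58.7% of all genes tested and 68.9% of the 599 other genes that averaged 100 FPKM or more. The median size of a member's log2 fold change between genotypes was 0.18, against 0.29 over all genes. Such steadiness was not particular to members. In the related lists described below, the share within 2-fold ran from 67.6% (ribosome assembly factors) to 93.8% (rescue and quality control). For mitochondrial ribosomal protein genes it was 84.4%. The median size of the log2 fold change ran from 0.14 in elongation factors and other TOP mRNAs to 0.38 in assembly factors. Members with a TOP tract at the annotated start (13 genes) had a median log2 fold change of -0.35, and the 45 other tested members with a promoter sequence had -0.14. With the tract allowed within 5 bases of the start the medians were -0.18 (28 genes) and -0.14 (30 genes), a smaller gap. In Asxl1-/- replicate 2 both sets lay near each other, at -0.36 and -0.30 log2 units from the 4-library mean. The 13 include Rps6, Rps18, Rpl28 and Rps10, whose tracts or values are given above. They also include Rpl15, Rpl14 and Rplp2, with log2 fold changes of 0.007, 0.019 and 0.025. Rpl14, Rplp2, Rps15a and Rps27 among them are the low rows described above.

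Members also varied between libraries with the other genes of their chromosome. The 81 members lie on 19 chromosomes, 14 of them on chromosome 7. On chromosome 9 all 7 tested members (Rpl4, Rpl14, Rpl29, Rplp1, Rps25, Rps27l and Rpsa) were higher in WT replicate 2 than in WT replicate 1, with a median difference of 0.78 log2 units, and the 627 other genes of that chromosome had a median of 0.54. Rpl4, for example, was at 651 and 1316 FPKM in WT and 1017 and 601 FPKM in the Asxl1-/- libraries, and Rpl29 was at 222 and 381 FPKM in WT and 319 and 190 FPKM. On chromosome 4, 0 of 5 members, among them Rpl11, Rpl22, Rps6 and Rps20, were higher in WT replicate 2, with a median of -0.40, the same as the -0.40 of its other genes. Rps6, whose values are given above, was at 595 and 479 FPKM in these libraries, WT replicate 1 being the higher.

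Across 76 members, leaving out Rpl39l, Rps4l and Rps27l, the WT difference correlated with the median of the member's own chromosome with Pearson's r = 0.66 and Spearman's rho = 0.63. For the Asxl1-/- difference the values were 0.72 and 0.73. With the 3 paralogs included r was 0.32 and 0.20 and rho 0.62 and 0.68. These correlations describe genes of shared libraries, and members of a chromosome share their point on 1 axis. Of the 12 chromosomes with at least 3 tested members, 10 had members and other genes differing in the same direction between the WT libraries. Between the Asxl1-/- libraries 5 did. On all 12, the members lay below the chromosome's other genes in the difference between the Asxl1-/- libraries. On chromosomes 1 and 10, however, Asxl1-/- replicate 2 was not the lowest library: the members' median deviation from the 4-library mean was -0.06 and -0.04 log2 units in it and -0.17 and -0.13 in WT replicate 1. After the chromosome medians were removed, the members' median log2 fold change was -0.11, and 0 members were called.

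**Figure D4:**
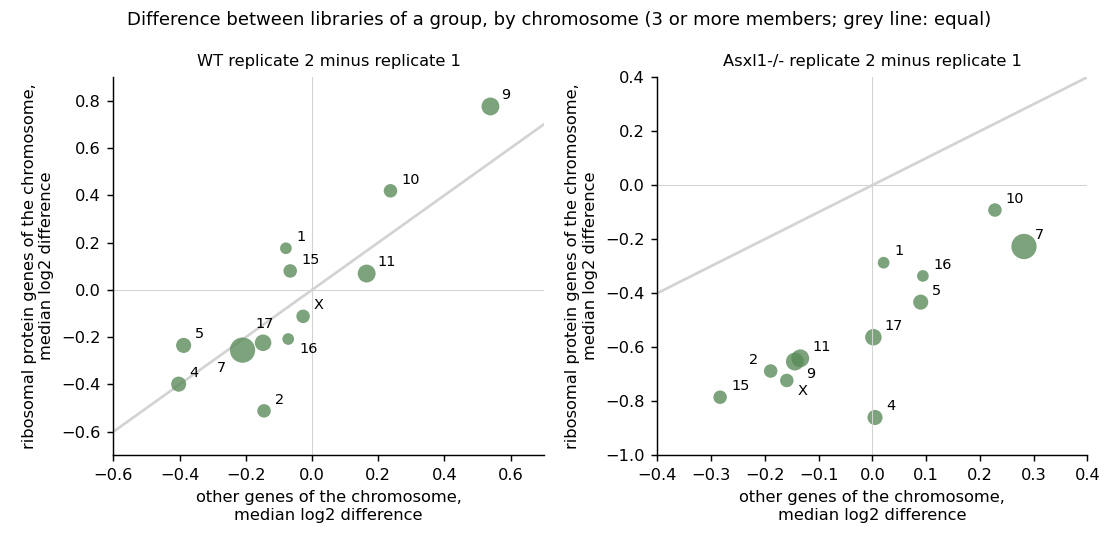
Median log2 difference between the 2 WT libraries (left) and the 2 Asxl1-/- libraries (right) for members against that of the other genes of the same chromosome; each labelled point is a chromosome with at least 3 tested members, its area grows with their number, and the grey line marks equality. In WT the members of chromosome 9 stand at 0.78 and those of chromosome 4 at -0.40, and in the Asxl1-/- panel all 12 points lie below the line.

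A pair of tissue-restricted paralogs were near or at 0. Rpl3l, the muscle form of Rpl3, was listed at 0.0469 and 0 FPKM in WT and 0.0966 and 0 FPKM in the Asxl1-/- libraries, while Rpl3 was at 666 and 892 FPKM in WT and 903 and 534 FPKM. Rpl10l, the testis form of Rpl10, was listed at 0 in all 4 libraries. Their coding sequences share 74.4 and 84.7% identity with Rpl3 and Rpl10. Neither was tested.

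The 3 tested members that varied most between libraries were all paralogs, and they varied across the genotypes. Rpl39l, a form of the tunnel protein Rpl39 known from male germ cells, was listed at 0 in WT replicate 1 and Asxl1-/- replicate 2, and stood at 135 FPKM in WT replicate 2 and 105 FPKM in Asxl1-/- replicate 1. Rpl39 itself, with 85.5% coding identity, was at 1645 and 1435 FPKM in WT and 1990 and 1266 FPKM in the Asxl1-/- libraries. Rps4l had the opposite order, with 14.7 and 10.4 FPKM in WT replicate 1 and Asxl1-/- replicate 2 and 0.0543 and 0.0519 FPKM in the other two. GENCODE annotates Rps4l as a transcribed processed pseudogene (chr6:148354656-148355596), and Tmtc1, whose span holds it, was at 2.11, 0.0708, 0.424 and 3.26 FPKM in WT replicates 1 and 2 and Asxl1-/- replicates 1 and 2, highest in the same libraries. Rps4x, the main form, was at 1032 and 1157 FPKM in WT and 1521 and 877 FPKM.

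Rps27l, a p53 target with 76.2% coding identity to Rps27, was at 163 and 500 FPKM in WT against 387 and 192 FPKM in the Asxl1-/- libraries. Its high libraries were those in which Rpl39l was above 0. The p53 targets Cdkn1a, a cell cycle inhibitor, and Mdm2, the ligase that degrades p53, were looked up after the values of Rps27l were seen. Cdkn1a was at 5.92 and 201 FPKM in WT and 122 and 71.3 FPKM, and Mdm2 was at 13.6 and 137 FPKM in WT and 71.8 and 36.7 FPKM in the Asxl1-/- libraries. They had the same order of libraries as Rps27l. None of the 3 paralogs passed limma's test between genotypes: the log2 fold changes were -0.18 (SE 3.23) for Rpl39l, -0.24 (SE 1.74) for Rps4l and -0.07 (SE 0.67) for Rps27l. Leaving out 1 library moved them between -3.73 and 3.36, between -2.18 and 1.71, and between -0.87 and 0.74, so each direction rests on single libraries.

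**Figure D5:**
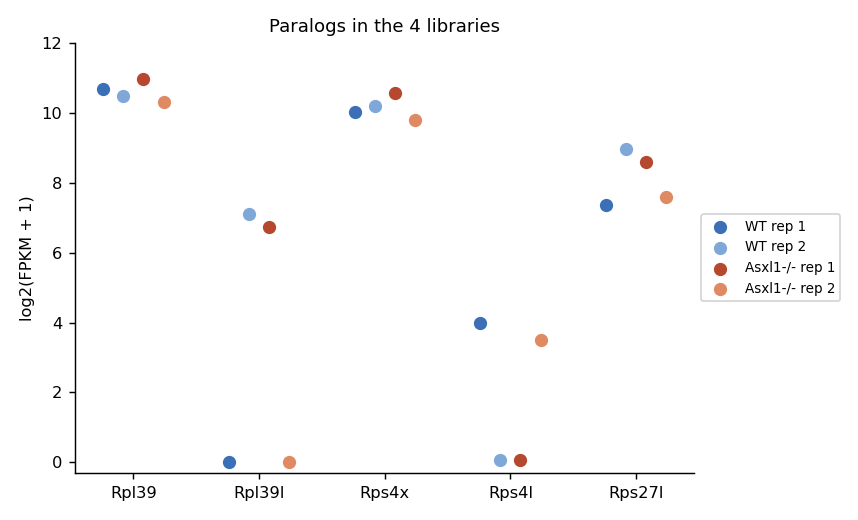
Level on the log2(FPKM + 1) scale of Rpl39, Rpl39l, Rps4x, Rps4l and Rps27l in each of the 4 libraries; each point is 1 library. Rpl39l and Rps27l are high in WT replicate 2 and Asxl1-/- replicate 1, where Rps4l is near 0; Rps4x is also highest in these libraries, over a far smaller range, and Rpl39 is highest in Asxl1-/- replicate 1 and WT replicate 1.

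A list of 10 tested genes with related symbols outside the rule gave 0 calls. It holds paralogs and fusion genes but also Rsl1d1, Rsl24d1 and Rps19bp1, which code for assembly or binding factors. In it 8 genes were negative (80.0%, against 56.8% of all genes tested) and 5, Rsl1d1 and Rsl24d1 among them, had both Asxl1-/- libraries below WT (25.2% of all genes did). Rps3a1, a small-subunit protein, was at 1078 and 1030 FPKM in WT and 787 and 614 FPKM in the Asxl1-/- libraries (log2 fold change -0.60, SE 0.28, limma adjusted p = 0.632). Fau, which yields Rps30, was at 598 and 582 FPKM in WT and 919 and 436 FPKM, on either side of WT like Rps27a.

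The genes around ribosomal protein production were counted from lists chosen for their function. Of 25 elongation factors and other TOP mRNAs, 0 were called, and their median log2 fold change was -0.05. Like the members, they were low in Asxl1-/- replicate 2, with a median of -0.30 log2 units from the 4-library mean. Pabpc1, the poly(A)-binding protein, was at 500 and 532 FPKM in WT and 413 and 287 FPKM in the Asxl1-/- libraries. Nap1l1, a histone chaperone, was at 221 and 199 FPKM in WT and 330 and 302 FPKM.

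Ribosome assembly factors had the lowest median among these lists, -0.37 over 71 genes (-0.16 without WT replicate 1 and -0.67 without WT replicate 2), with 0 called, 59 negative (83.1%, against 56.8% of all genes), and 32 with both Asxl1-/- libraries below both WT libraries (45.1%, against 25.2% of all genes tested). An unadjusted p under 0.05 was reached by 5 of them, all lower, where 5.41% of all genes tested were lower at that p. Gar1, a protein of the pseudouridylation complex, was at 52.9 and 24.3 FPKM in WT and 11.7 and 14.7 FPKM in the Asxl1-/- libraries (log2 fold change -1.39, SE 0.43, limma adjusted p = 0.572). Like the members, the list was low in Asxl1-/- replicate 2, with a median of -0.30 log2 units from the 4-library mean. That library was the lowest for 46 of the 71, where 27.1% of all genes tested had it lowest. WT replicate 1 was the highest library for 52 of the 71, where 37.4% of all genes tested had it highest. It was also the library with the highest sum of proliferation markers, 228 FPKM. The part of those cells in the list's values was not tested.

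The other lists also held 0 calls by limma. RNA polymerase I and its factors (15 genes) had a median of -0.28 with 12 negative, and its largest subunit Polr1a was at 23.9 and 14.8 FPKM in WT and 10.6 and 10.5 FPKM in the Asxl1-/- libraries. Asxl1-/- replicate 2 was the lowest library for 10 of the 15, where 27.1% of all genes tested had it lowest. In that library their median lay -0.24 log2 units from the 4-library mean. RNA polymerase III and the 5S factors (21 genes) had a median of -0.10, initiation factors (33 genes) -0.09, mTORC1 and the control of TOP mRNAs (30 genes) -0.12, and rescue and quality control (16 genes) -0.12. Transcription factors tied to ribosomal protein promoters (16 genes) had a median of -0.21. Among them Myc was at 46.8 and 27.0 FPKM in WT and 20.0 and 7.90 FPKM in the Asxl1-/- libraries (log2 fold change -1.42, SE 0.53, limma adjusted p = 0.62), with groups that did not overlap. Rps6kb1, the kinase that phosphorylates Rps6, was at 11.2 and 16.4 FPKM in WT and 19.1 and 24.1 FPKM, higher in both Asxl1-/- libraries.

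Mitochondrial ribosomal protein genes, which code for the separate ribosome of the mitochondrion, had a median of -0.15 for the log2 fold change in 77 genes, equal to that of the cytoplasmic set. In that list 0 genes were called, 53 were negative (68.8%, against 56.8% of all genes tested) and 25 had both Asxl1-/- libraries below WT (32.5%, against 25.2%). Asxl1-/- replicate 2 was lowest for 46 of the 77 (27.1% of all genes tested had it lowest), with a median of -0.17 log2 units from the 4-library mean. Mrpl54 was at 37.4 and 46.6 FPKM in WT and 72.4 and 93.3 FPKM in the Asxl1-/- libraries, and Mrps22 was at 20.6 and 15.9 FPKM in WT and 11.01 and 9.94 FPKM.

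In the authors' deposited table of the genotype comparison, which has no values per library, 77 members were tested and 0 were marked significant (0.939% of all 12881 tested genes were). The lowest p of a member in the authors' deposited table was 0.248, for Rps29, whose listed group values were 1048 FPKM in WT and 1516 FPKM in Asxl1-/- (log2 fold change 0.53). For Rps6 the authors' deposited table lists 620 and 445 FPKM (log2 fold change -0.48). Members there had a median log2 fold change of -0.06 against 0.01 over all tested genes, with 46 negative and 31 positive.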

How the data were processed

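Expression was read from the authors' deposited table of FPKM per gene, with 1 column for each of the 4 libraries; 2 further columns of per-sample values were not used. TopHat2 2.0.3, Cufflinks 2.2.1, Cuffdiff and the mm10 build are named per the submitters' processing notes. The authors' deposited comparison table gives group FPKM, log2 fold changes, p-values and q-values. Strand handling and the treatment of multiply mapped reads are not stated in the sources used.

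The members and all gene lists were chosen with earlier results of these data known. Rows averaging 1 FPKM or more were tested on log2(FPKM + 1) with limma 3.58.1 (trended eBayes, R 4.3.3), Asxl1-/- minus WT, two-sided, with Benjamini-Hochberg adjustment over all 11485 and a threshold of 0.05; the fit was tested on simulated data. Sums were compared by an exact permutation test. Genes were named by a rule: the 5 highest and 5 lowest members, up to 8 non-overlapping members per direction, members with fixed roles, paralogs, members listed at 0, and up to 3 genes per list by p. A few others were named after their values were seen: Rpl21, Rpl4, Rpl29, Rpl26, Rpl30, Tmtc1, Fau, the p53 targets and the members listed for a chromosome, a tract or groups that did not overlap. Copies were found with blastn 2.17.0 in GENCODE M21 transcripts, and promoters came from RefSeq (GRCm38.p6). Alternatives were the pseudocount, the filter, scalings, variance settings, leaving out each library and, chosen after seeing the data, removing chromosome medians and summing rows at 1 locus. Some genes are not reported here.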

Additional observations from a re-analysis of the deposited data

How the results depend on the processing

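In the 16 alternative fits 0 members were called (lowest adjusted p 0.484 by limma), and the members' median log2 fold change was negative in 14; it was below that of all genes in 15, the exception being the fit without Asxl1-/- replicate 2. With values rescaled to a common total over all rows (TPM) the members' median was 0.088, and with 1 library left out it lay between -0.41 and 0.039. The median of all genes was 0.007 with median ratio scaling, 0.016 with quantile normalization, 0.163 with TPM and 0.007 with chromosome medians removed (-0.11 to -0.04 with 1 library left out), so TPM moved all genes together. Members with an unadjusted p under 0.05 and a lower level numbered 0 to 2 with 1 library left out. Non-overlapping members on the higher side numbered 4 with median ratio scaling, 7 with quantile normalization, 14 with TPM and 4 with TPM over rows of at least 300 bp. On the lower side they numbered 1 with TPM. With 1 library left out they numbered 2 to 27 on the higher side and 13 to 58 on the lower. A group of 1 library is more easily clear of the other group, so these counts cannot be set against those from all 4 libraries. Shares over all genes are not given for these settings, so the counts cannot be read as particular to members. The log2 ratio of the members' share of the FPKM of all rows between genotypes was 0.06, and -0.18 as a sum with no denominator. Over rows of at least 300 bp the share went the other way. It was 16.49 ± 0.36% in WT and 14.81 ± 2.265% in the Asxl1-/- libraries (SD, n = 2 each). The TOP share was 46.7% with the start placed within 5 bases.

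List medians with TPM were -0.037 for RNA polymerase I, 0.12 for RNA polymerase III, 0.15 for initiation factors, 0.14 for mTORC1, 0.032 for transcription factors, 0.069 for paralogs and fusion genes, 0.13 for rescue and 0.11 for mitochondrial ribosomal proteins. RNA polymerase III was at -0.003 with quantile normalization, transcription factors at -0.066 and rescue at -0.009 with chromosome medians removed, and rescue at -0.031 with median ratio scaling. With 1 library left out, assembly factors lay between -0.67 and -0.16, RNA polymerase III between -0.24 and -0.001, initiation factors between -0.17 and 0.068, transcription factors between -0.32 and -0.038, paralogs and fusion genes between -0.34 and -0.14, and rescue between -0.24 and 0.06. The cause of these shifts was not tested. No paired analysis was possible because the replicate numbers are in accession order and pair no libraries. Without read counts, counting error is unknown, and a group left with 1 library is assumed to vary like the other.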
